A study of Mus musculus with 6 samples.

Results

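Serum response factor (SRF, gene Srf) and the 6 genes of its best known cofactors were followed through bulk RNA sequencing of mouse induced pluripotent stem cells (iPSCs), cells reprogrammed to a state like that of embryonic stem cells. The 7 genes were taken by symbol from the 24421 gene entries of the deposited count table. They are Srf, the myocardin family genes Myocd, Mkl1 (now Mrtfa, protein MRTF-A) and Mkl2 (now Mrtfb, MRTF-B), and the ternary complex factor (TCF) genes Elk1, Elk3 and Elk4. All 7 were in the table, and 6 of them, all but Myocd, had enough counts to be tested. The SRF KO group has 3 libraries of iPSCs with both Srf alleles deleted (SRFΔ/Δ), and the WT group has 3 libraries of iPSCs with both alleles floxed but intact (SRFf/f). Both were grown in serum, which is itself a stimulus for SRF. The labels do not say whether replicates are clones or cultures, so that p-values measure only the spread between these libraries, and they do not say how the deletion was made or whether feeder cells were present.

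SRF is a MADS-box transcription factor that binds the CArG box, a short element with an A- and T-rich centre between CC and GG. Its output depends on the partner it binds. The MRTFs are held in the cytoplasm by monomeric actin and enter the nucleus when actin is drawn into filaments, and SRF with MRTF then drives genes of the cytoskeleton. The TCFs are ETS-domain proteins that touch DNA beside SRF and are phosphorylated by MAP kinases, and SRF with TCF drives immediate-early genes such as Fos and Egr1.

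Libraries held between 26321602 and 36680156 counts. Levels are given as CPM, a gene's count scaled to a common library size after TMM scaling. Fold changes are on the log2 scale, positive where SRF KO was higher. A standard error (SE), where given, is the absolute log2 fold change divided by the square root of the test's F statistic. A gene was called at an adjusted p under 0.05 in the quasi-likelihood test of edgeR, adjusted by Benjamini-Hochberg over all entries, and all adjusted p-values below are from it. Markers of pluripotent cells were present in both groups, with summed levels of 6570 to 7065 CPM in WT and 5683 to 5821 CPM in SRF KO over 12 genes, none of them at 0. The most abundant of them were Dppa5a (1635 CPM in WT, 1220 CPM in SRF KO) and Tdgf1 (1384 and 1208 CPM). Of the 12, 1 was called higher and 4 lower, against 21.2% and 21.3% of all genes tested, with a median log2 fold change of -0.10. Their log2 fold changes ran from -0.79, for Nanog (444 CPM in WT, 256 CPM in SRF KO), to 0.17. Markers of other cell types were present too and also moved with the groups. The 15 fibroblast genes summed to 697 to 806 CPM in WT and 1438 to 1754 CPM in SRF KO, and the 13 genes of primitive and visceral endoderm to 128 to 140 CPM and 1562 to 1685 CPM. Each of these genes was above all WT libraries in all SRF KO libraries, which was also so for 26.2% of all genes tested. None was at 0 throughout, though Ttr, of the endoderm list, was at 0 in all WT libraries. Afp, of the same list, had at most 3 counts in every library and was not tested. In bulk RNA a change in the number of cells of a type and a change in RNA per cell cannot be told apart.

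Of the 6 genes tested, Elk3 was higher in SRF KO, Srf and Elk1 were lower, and Mkl1, Mkl2 and Elk4 were not called. That is 3 of 6, against 42.4% of all 14778 genes tested. WT replicate 2 stood apart from the other WT libraries on the second principal component (-15.6, against 5.87 and 10.7). Without it the same 3 genes of the group were called, at -3.21 for Srf, -0.28 for Elk1 and 0.98 for Elk3 on the log2 scale. The plot of levels by library shows the 7 genes side by side.

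**Figure D1:**
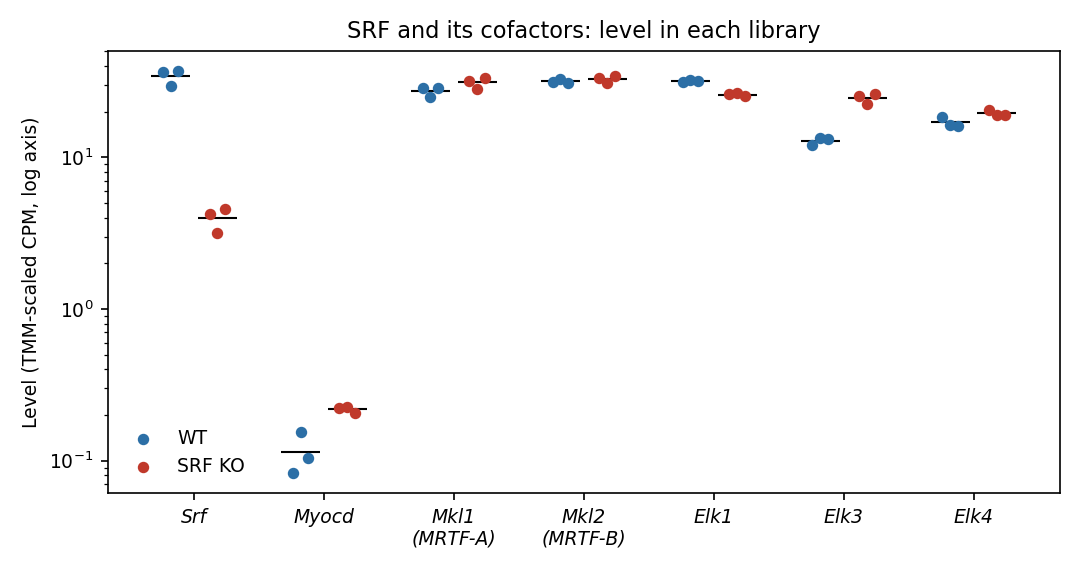
Level of each gene in each library (TMM-scaled CPM, log axis). Points are libraries, 3 per group, and black lines are group means. Srf and Elk1 lie lower and Elk3 and, narrowly, Elk4 higher in all 3 SRF KO libraries, while Mkl1 and Mkl2 overlap. Myocd lies under 0.23 CPM everywhere, and its groups do not overlap either. No overlap was also seen for 52.7% of all genes tested.

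Srf lies on the minus strand at chr17:46548329-46556175 (GRCm38, GENCODE M21), a gene of 7 exons. Its level was 4.20, 3.17 and 4.53 CPM in SRF KO replicates 1 to 3 and 36.6, 29.7 and 37.1 CPM in WT replicates 1 to 3. The groups were far apart, and WT replicate 2 was the lowest of its group, as was SRF KO replicate 2. On the log2 scale the change was -3.12 (SE 0.13, edgeR adjusted p 8.1e-09). No gene tested had a lower one. The remaining 11.5% of the WT level is a count over the whole gene, so that it cannot be assigned to exons kept or removed by the deletion.

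The Srf promoter is shown because SRF is known to act on its own gene. Of 32851 RefSeq windows of the 220 bases between 250 and 31 bases before a start site, 1.30% held at least 1 CArG box and 4 held 2 or more. The Srf window held 2 of them, and none of the other 10 windows of Mkl1, Mkl2, Elk1, Elk3 and Elk4 held any. The boxes, CCATATAAGG and CCATAAAAGG, begin 82 and 62 bases before the start. The ETS motif CCGGAA, searched on both strands, begins 122 bases before it and is present in 9.47% of all windows. The window is printed 5′ to 3′ on the gene's strand with these 3 matches in capitals (chr17:46556193-46556412, minus strand, RefSeq, GRCm38.p6). A match describes the letters and does not show binding.
Srf: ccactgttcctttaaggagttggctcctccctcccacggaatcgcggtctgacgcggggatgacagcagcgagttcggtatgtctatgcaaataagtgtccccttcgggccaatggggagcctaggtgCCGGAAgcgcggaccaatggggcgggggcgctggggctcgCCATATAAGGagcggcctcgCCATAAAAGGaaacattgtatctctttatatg

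**Figure D2:**
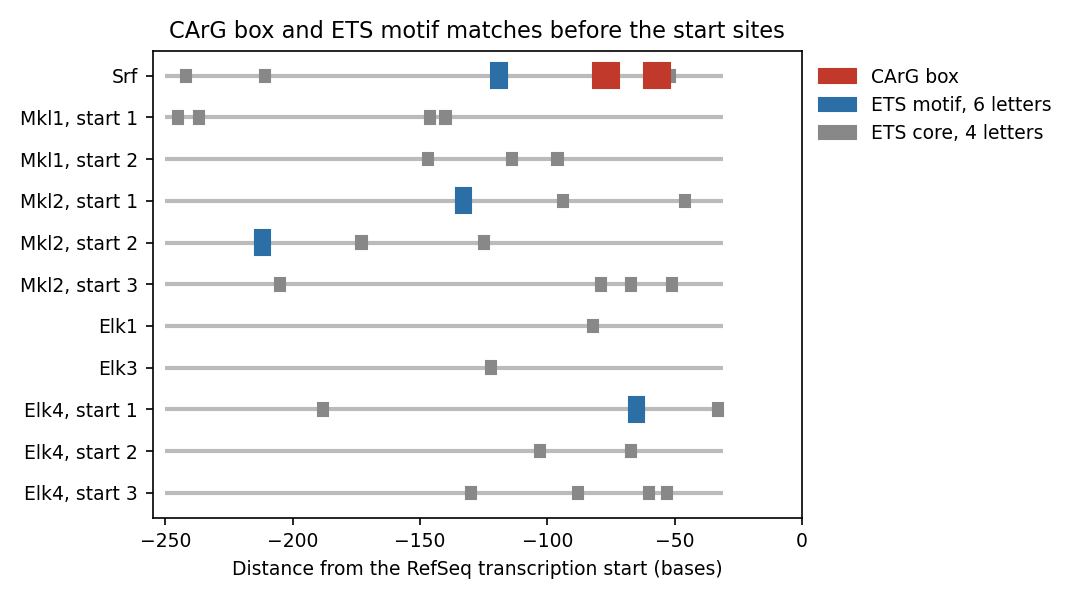
Matches to the CArG box (red), to the 6-letter ETS motif (blue) and to its 4-letter core GGAA (grey) in the 11 windows of 6 genes, by distance from the RefSeq transcription start in bases. The 2 red blocks are both in Srf. The blue blocks lie in Srf, in 2 overlapping windows of Mkl2 and in 1 window of Elk4, and the core alone is in 91.1% of all windows.

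To see whether genes beside the deleted one moved with it, the 3 protein coding genes on each side of Srf were compared. Cul9, a cullin gene 1.94 kb away, had 4.47 ± 0.368 CPM in WT and 4.43 ± 0.261 CPM in SRF KO (SD, n = 3), with a log2 change of -0.02 (SE 0.12, edgeR adjusted p 0.919). Ptk7, a receptor-like pseudokinase gene 8.29 kb away on the other side, differed by -0.13 on the log2 scale (SE 0.08, edgeR adjusted p 0.214). It was called without WT replicate 2, at -0.23, and with the replicate number as a block, at -0.13. Dnph1, Klc4 and Mrpl2 had log2 fold changes of -0.12, -0.07 and -0.08 and were not called, although Dnph1 was called at -0.16 without WT replicate 2. Ttbk1, a tau kinase gene 60.7 kb from Srf, was lower, with 1.75 ± 0.394 CPM in WT and 1.06 ± 0.225 CPM in SRF KO (SD, n = 3), a log2 change of -0.73 (SE 0.22, edgeR adjusted p 0.0214). This call was lost when SRF KO replicate 1 (-0.64), WT replicate 3 (-0.55) or SRF KO replicate 3 (-0.64) was left out.

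**Figure D3:**
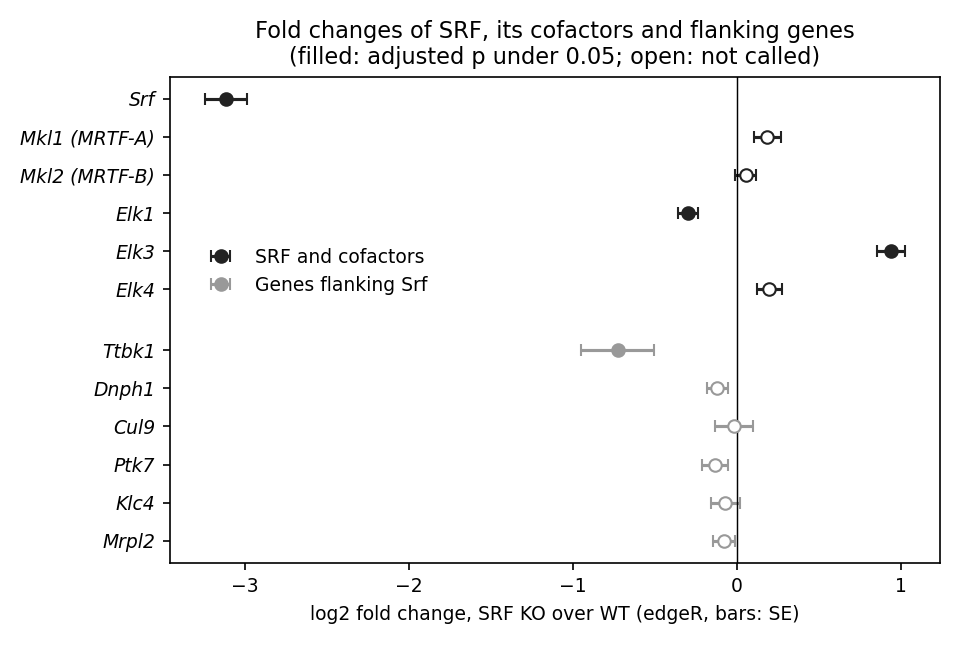
Log2 fold change of SRF KO over WT for the 6 tested genes of the group (black) and the 6 genes flanking Srf (grey), with SE bars. Filled points were called and open points were not. Srf stands at -3.12, and of the flanking genes Ttbk1 is the one that was called.

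Profiles over the 6 libraries were compared with that of Srf for 12342 other genes. These had a mean of at least 50 counts and were counted in every library. The nearest genes were found by the root mean square difference of log2 CPM, each gene centred on its own mean. In order they were Wnt7b (0.16), a Wnt ligand gene, Fos (0.17), an immediate-early gene and a textbook SRF target, Klhl13 (0.23), an adaptor of a CUL3 ubiquitin ligase, Trim67 (0.32) and Fxyd6 (0.38). Since the profile of Srf is mainly its fall between the groups, this order mostly reflects the size of a fall. Their log2 fold changes were -3.05, -2.93, -2.97, -2.53 and -2.47.

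The MRTF genes came next. Mkl1 lies on the minus strand at chr15:81012281-81190757 and Mkl2 on the plus strand at chr16:13256481-13417529 (GRCm38). Mkl1 stood at 28.6, 24.9 and 28.7 CPM in WT and 32.0, 28.2 and 33.4 CPM in SRF KO. The groups overlapped through SRF KO replicate 2, the lowest of its group, and replicate 2 was the lowest in WT too. The log2 fold change was 0.19 (SE 0.08, edgeR adjusted p 0.0898). Without SRF KO replicate 2 it passed the threshold at 0.26, and with the replicate number as a block it passed at 0.19. Mkl2 stood at 31.5, 32.7 and 30.7 CPM in WT and 33.1, 31.1 and 34.2 CPM in SRF KO, overlapping groups with a log2 change of 0.05 (SE 0.06, edgeR adjusted p 0.535). Of all genes tested, 84.8% had a larger absolute fold change than Mkl2.

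Myocd encodes myocardin, the founding member of the family, known from heart and smooth muscle, and lies on the minus strand at chr11:65176561-65269989 (GRCm38). It had 6 counts in each SRF KO library and 3, 4 and 3 counts in the WT libraries. In CPM the groups did not overlap, which was also so for 52.7% of the genes tested. With no filter on low counts its edgeR adjusted p was 0.225, and no difference was detected. The 7 muscle markers summed to 57.9 to 63.8 CPM in WT and 58.4 to 62.8 CPM in SRF KO, with Smtn (31.3 CPM in WT) and Des (16.6 CPM), neither of them called, the most abundant. Of the 5 tested, the myosin genes Myh11 (log2 fold change 1.06) and Myh6 (-0.48) were called higher and lower, where 42.4% of all genes tested were called.

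The TCF genes moved unequally. Elk3, also called Net, encodes a TCF that represses its targets until it is phosphorylated. It lies on the minus strand at chr10:93247414-93311135 (GRCm38). Its level was 12.0, 13.4 and 13.2 CPM in WT and 25.4, 22.4 and 26.2 CPM in SRF KO, so that every SRF KO library was well above every WT library. The log2 fold change was 0.94 (SE 0.08, edgeR adjusted p 4.78e-06), or 1.92-fold, and 6.16% of all genes tested had a higher one. Elk1, the first TCF to be described, lies on the minus strand at chrX:20933395-20950608. Its level was 31.3, 32.6 and 31.7 CPM in WT and 26.0, 26.4 and 25.3 CPM in SRF KO. The groups were narrow and did not overlap. Elk1 fell by 18.7%, which is -0.30 on the log2 scale (SE 0.06, edgeR adjusted p 0.00193), and 17.5% of all genes tested had a lower one.

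Elk4, also called SAP-1, lies on the plus strand at chr1:132007607-132032612. It had 18.5, 16.4 and 16.2 CPM in WT and 20.5, 19.1 and 19.0 CPM in SRF KO. The SRF KO libraries were all higher, with the nearest values, 19.0 and 18.5 CPM, close together. The log2 difference of 0.20 (SE 0.08, edgeR adjusted p 0.0621) did not pass. It passed with library totals in place of TMM (0.23), with the replicate number as a block (0.20) and without WT replicate 1 (0.26).

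The promoter windows of Elk1 and Elk3 are shown because these genes were called in opposite directions. Neither held a CArG box or the motif CCGGAA, and the core GGAA, on either strand, occurred once in each, beginning 84 bases before the Elk1 start as TTCC and 124 bases before the Elk3 start. Both are printed 5′ to 3′ on the gene's minus strand, all in lower case because neither holds a CArG box or CCGGAA (RefSeq, GRCm38.p6, chrX:20950639-20950858 and chr10:93311190-93311409).
Elk1: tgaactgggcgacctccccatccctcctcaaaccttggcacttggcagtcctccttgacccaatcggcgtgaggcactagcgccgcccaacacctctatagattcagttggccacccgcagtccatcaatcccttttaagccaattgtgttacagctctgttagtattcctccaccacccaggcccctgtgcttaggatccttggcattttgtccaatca
Elk3: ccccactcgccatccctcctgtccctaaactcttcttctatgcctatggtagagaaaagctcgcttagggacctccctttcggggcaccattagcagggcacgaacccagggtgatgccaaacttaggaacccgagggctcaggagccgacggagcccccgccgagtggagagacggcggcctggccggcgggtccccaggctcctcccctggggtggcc

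Reads of overlapping genes could enter these counts, since the strand setting is not given in the sources used here. Exons of Cdk17, on the other strand, cover 316 bases or 6.95% of the exon bases of Elk3. Cdk17 stood at 62.0 ± 1.91 CPM in WT and 59.1 ± 2.03 CPM in SRF KO (SD, n = 3) and was not called (log2 fold change -0.07, edgeR adjusted p 0.325). Uxt covers 1.41% of the exon bases of Elk1, Mfsd4 1.31% of those of Elk4 and Sgsm3 0.164% of those of Mkl1, and none of these 3 genes was called.

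Fibroblast markers moved with Elk3. All 15 were called higher, against 21.2% of all genes tested. They had log2 fold changes between 0.81 and 1.49 and a median of 1.18, and the log2 fold change of Elk3 lies in this range. Bgn (135 CPM in WT, 306 CPM in SRF KO) and Col1a1 (132 and 268 CPM) led by level. In SRF KO the summed level was 1619, 1438 and 1754 CPM in replicates 1 to 3, the same order of libraries as that of Elk3. Srf, Mkl1 and Mkl2 had this order in SRF KO as well, so that it is not particular to Elk3. In WT the summed level was 718, 697 and 806 CPM, an order different from that of Elk3. Endothelium is another tissue known for Elk3. Of its 5 tested markers 3 were higher and 1 lower, against 21.2% and 21.3% of all genes tested, with a median of 1.12. Cdh5 (log2 fold change 4.56, only 0.195 CPM in WT), Esam (1.12) and Kdr (1.49, 0.714 CPM in WT) rose. Tek (-0.50) fell and Tie1 was not called. All 6 markers summed to 13.9 to 15.6 CPM in WT and 20.6 to 22.0 CPM in SRF KO, with Tek (10.2 and 7.18 CPM) and Esam (3.18 and 6.93 CPM) the most abundant in WT. The part of fibroblast, endothelial or endoderm cells in the level of Elk3 was not tested.

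The balance within each family was then compared, since a share does not depend on library scaling. Levels were divided by merged exon length to give CPM per kb. Elk3 made up 41.0%, 38.4% and 42.8% of the summed TCF level in SRF KO and 23.2%, 25.6% and 25.7% in WT. Elk1 made up 35.5%, 38.3% and 35.1% in SRF KO and 51.3%, 52.3% and 52.0% in WT. Neither share overlapped between the groups, while that of Elk4 did (23.0% ± 0.787 and 23.3% ± 1.88, SD, n = 3). The log2 ratio of Elk3 to Elk1 was 1.23 higher in SRF KO than in WT, with an exact two-sided permutation p of 0.1, the smallest that 3 libraries against 3 allow (0.175 after Benjamini-Hochberg adjustment over 14 such quantities). No quantity of this kind could pass 0.05 in this design.

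**Figure D4:**
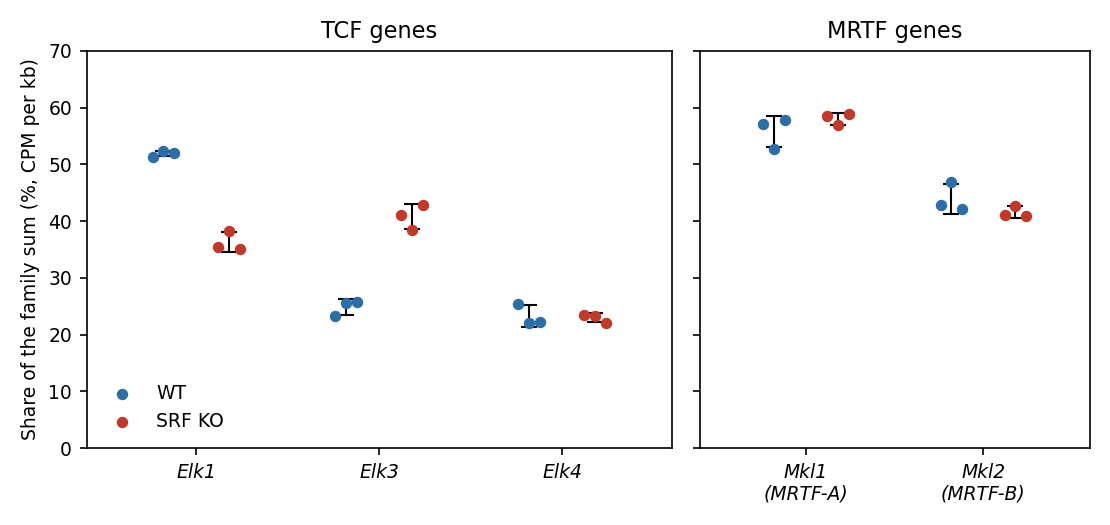
Share of each gene in the summed level of its family (percent, CPM per kb of merged exons), for the TCF genes on the left and the MRTF genes on the right. Points are libraries and bars are the mean with SD, n = 3 per group. Elk1 goes from 51.9% in WT to 36.3% in SRF KO and Elk3 from 24.8% to 40.8%, while the shares of Elk4, Mkl1 and Mkl2 overlap.

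Within the MRTF family, Mkl1 made up 55.8% ± 2.71 in WT and 58.0% ± 1.03 in SRF KO (SD, n = 3), closer together than the SD of the WT libraries. The summed TCF level was 11.4 ± 0.133 CPM per kb in WT and 13.3 ± 0.429 CPM per kb in SRF KO (SD, n = 3), which is 0.22 higher on the log2 scale with no overlap (exact permutation p 0.1). With the longest transcript as the length this difference was 0.15. The summed MRTF level was 8.02 ± 0.244 CPM per kb in WT and 8.78 ± 0.615 CPM per kb in SRF KO (SD, n = 3), and the groups overlapped (exact permutation p 0.3). The ratio of the MRTF sum to the TCF sum differed by -0.09 on the log2 scale, or -0.0078 with the longest transcript, and overlapped as well.

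Per kb of exon, Srf was the most abundant of the 7 in WT, at 11.9 ± 1.43 CPM per kb (SD, n = 3). After it came Elk1 at 5.92, Mkl1 at 4.48, Mkl2 at 3.52, Elk3 at 2.83 and Elk4 at 2.65 CPM per kb, with Myocd last. The ranges of Elk3 and Elk4 overlapped in WT and those of the other neighbours did not. In SRF KO the order was Elk3 at 5.42, Mkl1 at 5.10, Elk1 at 4.81, Mkl2 at 3.65, Elk4 at 3.05 and Srf at 1.37 CPM per kb, and the range of Mkl1 overlapped those of Elk3 and Elk1. These orders depend on the length used. With the longest transcript, Elk1 was first in SRF KO at 7.30 CPM per kb and Elk3 the third at 5.85, and in WT Elk3, at 3.06, came after Elk4 at 3.83 and Mkl2 at 3.81.

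Srf was at 1.54, 1.33 and 1.58 times the summed MRTF level in WT and at 0.162, 0.135 and 0.168 times it in SRF KO. Against the summed TCF level it was at 1.12, 0.889 and 1.13 times in WT and at 0.107, 0.0856 and 0.117 times in SRF KO. With the longest transcript as the length, Srf was at 0.831 ± 0.108 times the TCF sum in WT (SD, n = 3). Which of them is the higher in WT therefore depends on the length used. The groups were far apart in both ratios, with differences of -3.26 and -3.35 on the log2 scale (exact permutation p 0.1 each). Replicate 2 was the lowest of its group in both ratios and both groups.

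Genes around this group were described by lists, as counts of calls and medians, beside a median log2 fold change of -0.01 over all genes tested, of which 21.2% were called higher and 21.3% lower. Actg1 and Actb, the cytoplasmic actins whose free monomer restrains the MRTFs, fell by 1.75 and 1.26 on the log2 scale. Both belong to a family with many pseudogenes, so that their values depend on the counting rule.

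Of 31 Ras, MAP kinase and coactivator genes that act before or on the TCFs, 6 were higher and 12 lower, with a median of -0.10 and no log2 change beyond -0.69 and 0.96. The calls with the smallest p were those of inhibitors of the pathway. Spry4 and Spry2, membrane-associated inhibitors of Ras signalling, rose by 0.48 and 0.34, while Spry1 of the same family fell by 0.37. Dusp4, a nuclear MAP kinase phosphatase, rose by 0.96. Dusp1, another MAP kinase phosphatase and itself an immediate-early gene, fell by 0.69.

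Of 19 tested ETS family genes other than the TCFs, 10 were higher and 5 lower, with a median of 0.43. Ets1 was at 4.81 ± 0.205 CPM in WT and rose to 16.9 ± 0.255 CPM (SD, n = 3), by 1.82 on the log2 scale (SE 0.08, edgeR adjusted p 1.96e-08). Etv4 and Etv5, close relatives and known as targets of FGF and ERK signalling, went opposite ways, at 0.66 and -0.53. Elf3, an epithelial ETS factor, was at 64.0 ± 2.93 CPM in WT and fell to 26.5 ± 0.493 CPM (SD, n = 3), a change of -1.27 on the log2 scale (SE 0.06, edgeR adjusted p 2.05e-08). Of the 5 genes of MEF2, the other MADS-box family, and its coactivator Mamstr, Mef2a and Mef2c rose by 0.45 and 1.04 and the other 3 were not called, with a median of 0.03 over the list. Mef2c was low, at 0.584 CPM in WT and 1.19 CPM in SRF KO.

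Of 14 tested genes of other proteins described as partners of SRF or myocardin, 7 were higher and 3 lower, with a median of 0.16. The 4 with the smallest p all rose, namely Gata4 by 3.95, Gata6 by 3.66, Hopx by 1.68 and Prrx1 by 1.13 on the log2 scale. Gata4 and Gata6 are also on the endoderm list, led by Lama1 (87.4 CPM in WT, 590 CPM in SRF KO) and Cubn (9.80 and 576 CPM), and Prrx1 is on the fibroblast list. The part of such cells in these rises was not tested.

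Known targets of the 2 branches are set beside their cofactors. Of 20 MRTF-SRF targets, a list that holds Acta2 but not Actb and Actg1, 12 were higher and 7 lower, with a median of 0.42. The calls with the smallest p were rises of the smooth muscle genes Acta2 (1.23), Tagln (1.02) and Cald1 (0.89) and a fall of Lima1 (-0.66), an actin cross-linking protein gene. Of 13 TCF-SRF targets, 2 were higher and 7 lower, with a median of -0.29. Fos, Egr1 and Fosb fell by 2.93, 2.29 and 1.19, and Trib1, a pseudokinase gene, rose by 0.69. The smooth muscle genes are also active in fibroblasts, whose markers rose by a median of 1.18, and their part in these rises was not tested. Whether the 2 lists differ was not tested.

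**Figure D5:**
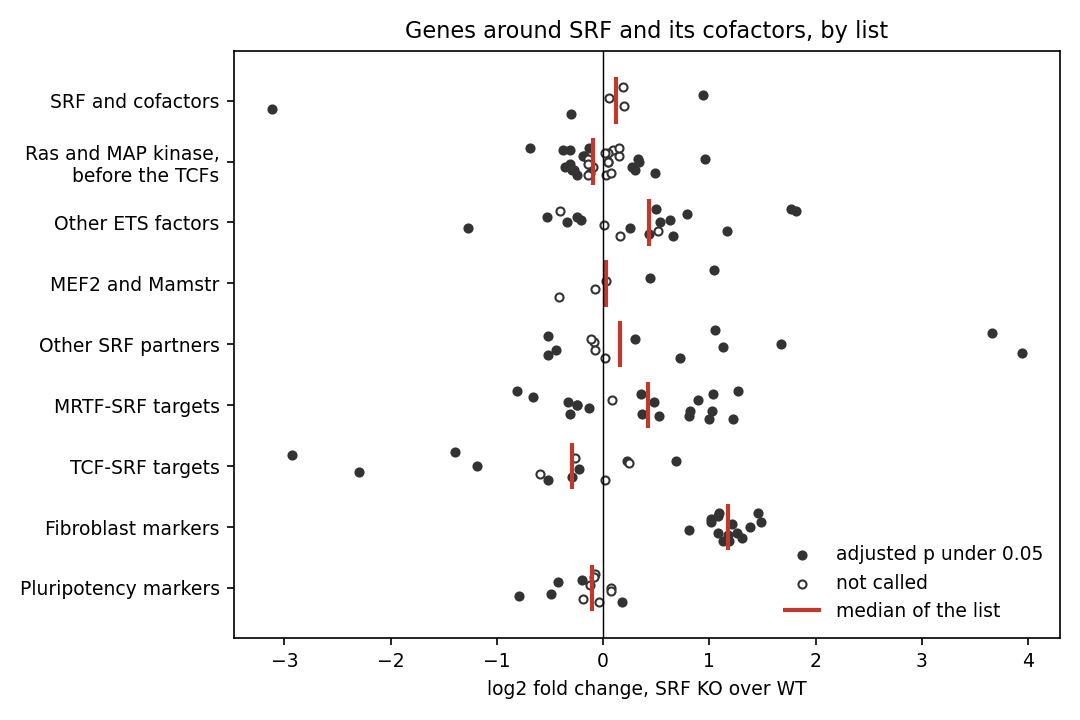
Log2 fold change of SRF KO over WT for each tested gene of 7 lists around SRF and of 2 marker lists. Filled points were called, open points were not, and red lines are medians. The medians lie at -0.29 for TCF-SRF targets, 0.42 for MRTF-SRF targets and 1.18 for fibroblast markers.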

How the data were processed

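Per the labels' protocols, total RNA of 6 iPSC samples was sequenced as paired reads of 150 bp, and reads that were empty, of low quality or adaptor were discarded. The deposited table holds raw counts per gene and per transposable element subfamily. Build mm10 and DESeq2 are named in the submitters' processing notes. The aligner, the counting program, the annotation and the strand setting are not given in the sources used here.

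All entries were fitted together with edgeR 4.0.16 (R 4.3.3), with filterByExpr at a minimum count of 10 and TMM scaling. A count of 0 allows up to 3 counts, or 0.0828 to 0.117 CPM in these libraries, for counting error only. GENCODE M21 gave lengths, positions and overlaps on GRCm38, the assembly of mm10. RefSeq gave promoter windows for 6 of the 7 genes. Replicate pairs differed by more than sampling noise, with a chi-square per degree of freedom between 1.83 and 15.5.

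The genes, lists and tests were chosen with earlier results of these data known. Named from each list were the 4 called genes with the smallest p (2 highest levels for markers), with Actb, Actg1, the 3 genes on each side of Srf and the 5 nearest profiles to Srf. 1 further list is not reported here. Genes whose exons overlap a TCF or MRTF gene, and Afp, Cdh5, Kdr, Myh11, Myh6, Nanog, Spry1, Tie1 and Ttr, were added after their values were seen. Alternatives were DESeq2 1.42.0, RLE or total-count scaling, no filter, gene entries alone, a replicate block, other lengths and leaving out each library.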

Additional observations from a re-analysis of the deposited data

How the results depend on the processing

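Srf, Elk1 and Elk3 kept their direction and call under all 12 alternatives run for each, with log2 fold changes of -3.23 to -2.98, -0.31 to -0.26 and 0.89 to 1.01. Leaving out 1 library gave 0.13 to 0.26 for Mkl1, 0.16 to 0.26 for Elk4, -0.90 to -0.55 for Ttbk1, -0.16 to -0.087 for Dnph1 and -0.23 to -0.076 for Ptk7, with calls gained or lost as given beside each. It gave 0 to 1 gene of the MEF2 list lower. Library totals in place of TMM called Elk4 (0.23). With the longest transcript as the length, the gain in the share of Elk3 was 14.0 percentage points in place of 15.9, the difference in the log2 TCF sum 0.15 and that in the ratio of the MRTF sum to the TCF sum -0.0078. With no length scaling the TCF sum differed by 0.18. Length enters these sums by construction. The main fit used no pairing by replicate number. Deviations from the group means correlated at 0.071, 0.404 and 0.25 between SRF KO and WT libraries of one number, all positive. These values do not settle whether the numbers pair the libraries. A fit with the replicate number as a block called 7512 genes in place of 6273, among them Mkl1 (0.19), Elk4 (0.20) and Ptk7 (-0.13). Myocd had at most 6 counts in a library, which limits its precision.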

Other observations

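The spread between replicate libraries differed among the genes of the group. The coefficient of variation of CPM over 3 libraries was 17.8% in SRF KO and 12.0% in WT for Srf, and 2.01% and 2.02% for Elk1, the steadiest of the 6 tested genes in both groups. For Elk3 it was 8.10% and 6.16%, for Elk4 4.46% and 7.50%, for Mkl1 8.70% and 7.75%, and for Mkl2 4.74% and 3.09%. No test of these spreads was made.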
